A study of Oryctolagus cuniculus with 12 samples.

Results

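The BCL2 family genes of the gene table were described here across 12 libraries of rabbit conjunctiva. The members were 10 genes taken by name, namely BCL2, BCL2L1, MCL1, BCL2A1, BAX, BAK1, BBC3, PMAIP1, BCL2L11, and BID. Of these, 9 had a row of that name among 20566 genes, and all 9 passed the filter on low counts, as did 14835 genes in all. The member without a row of that name was PMAIP1. A row named LOC103349392, which the gene table describes as the protein that PMAIP1 encodes, is given beside the members and is counted in none of their totals. It was chosen after its values were seen.

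Female Japanese white rabbits had trabeculectomy, a glaucoma operation that drains aqueous humor under the conjunctiva, with the antiproliferative drug mitomycin C in the right eye. The groups TL3h, TL3d, and TL14d each held 3 libraries of conjunctiva with the filtering bleb, from 3 hours, from 3 days, and from 14 days after the operation. The group cont held 3 libraries of conjunctiva from left eyes that had no operation. The study's methods give rabbits of 12 to 14 weeks, mitomycin C at 0.4 mg/mL on sponges, and a betamethasone injection into the conjunctiva at the end of surgery. All operated groups thus shared the incision, mitomycin C, and a steroid, and what each of these adds cannot be told apart. When, and from which of the animals, the control tissue was collected is not given in the sources used here. The study treats the libraries of an operated group as separate eyes and describes the operation on right eyes, which makes them separate animals. For cont this is not stated, so that the spread among its libraries may be technical.

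Proteins of the BCL2 family decide whether the outer membrane of mitochondria stays closed or is opened during apoptosis. BCL2, BCL2L1 (BCL-XL), MCL1, and BCL2A1 (BFL-1/A1) hold cells alive by binding the other members. BAX and BAK1 form the pores that release cytochrome c, and the BH3-only proteins BBC3 (PUMA), PMAIP1 (NOXA), BCL2L11 (BIM), and BID sense damage and stress and start the process. BCL2A1 is known as a gene of blood cells that NF-kappaB switches on.

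On the rabbit assembly OryCun2.0, as given in the authors' gene table, BCL2 lies on the minus strand of chromosome 9 from 103402670 to 103572155. BCL2L1 lies on the plus strand of chromosome 4 from 7511130 to 7569358, and MCL1 on the plus strand of chromosome 13 from 41503585 to 41508503. BAK1 lies on the minus strand of chromosome 12 from 23915172 to 23922139, and BCL2L11 on the plus strand of chromosome 2 from 96187371 to 96236574. The other members, BAX, BCL2A1, BBC3, and BID, lie on sequence that is not placed on a chromosome. LOC103349392 lies on the plus strand of chromosome 9 from 100192206 to 100195948.

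The libraries held between 27111276 and 38591374 counts. Levels are CPM, counts relative to the library's total, with totals scaled by TMM, which sets the bulk of genes equal between libraries. The TMM factors were 0.768 to 0.783 in TL3h and 1.03 to 1.13 in the other groups. Scaling by library size alone shifted all genes at 3 hours to a median log2 fold change of -0.47, and changes are given relative to the TMM scale. Epithelial genes were present in every library, with summed levels of 4460 to 16800 CPM over the 6 of 9 listed epithelial markers that had a row. Cell markers differed between the groups. The 5 markers shared by leukocytes summed to 206 to 366 CPM in cont, 1000 to 2110 CPM in TL3h, 1480 to 1810 CPM in TL3d, and 212 to 1080 CPM in TL14d, and all 5 were higher in TL3h and in TL3d than in cont. The 7 of 10 neutrophil markers with a row summed to 4.39 to 105 CPM, 1280 to 3420 CPM, 159 to 853 CPM, and 3.73 to 117 CPM in the same order. The 7 fibroblast markers summed to 9870 to 58400 CPM, 80800 to 96900 CPM, 1020 to 45500 CPM, and 8050 to 40400 CPM. No marker with a row was at 0 in all libraries of a group. In such bulk tissue, fewer cells of a type and less RNA per cell cannot be told apart.

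At 3 hours after surgery, 6 of 9 members were higher than in cont, none was lower, and 3 did not pass the test. BCL2A1 rose most, followed by BCL2L11 and MCL1, so that genes for survival proteins and for a BH3-only killer protein rose in the same libraries. Of all genes tested, 45.4% were called at 3 hours (23.2% higher and 22.2% lower than cont). The median log2 fold change was 0.75 over the members and 0.02 over all genes. With library size alone as the scale, 3 members were higher (MCL1, BCL2A1, and BCL2L11) and 1 was lower (BID), with 7563 of 14835 genes called in all. At 3 days, 4 of 9 members were higher and 1 was lower, against 17.6% of all genes called (10.6% higher and 7% lower), and the medians were 0.58 and 0.00. This background rests on single libraries, since the 2608 genes called fell to 491 without cont replicate 1, 370 without cont replicate 2, 449 without TL3d replicate 1, and 359 without TL3d replicate 2, with 2 or 3 members among them. At 14 days 0 members were called, as was 0% of all genes by edgeR's quasi-likelihood test. Of the members, 2 had an unadjusted p under 0.05 at 14 days, against 10.4% of all genes, and DESeq2 called 1, which was BAX, among 367 genes. When the 3 time points were tested together, 7 members were called, against 52.4% of all genes. Of these 7, BID was just under the threshold (q = 0.045). Over the alternatives with this test, 5 to 9 members were called, among 6238 to 9425 genes. BCL2L1 (q = 0.0629) and BBC3 (q = 0.064) were the members that missed the threshold in that test.

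**Figure D1:**
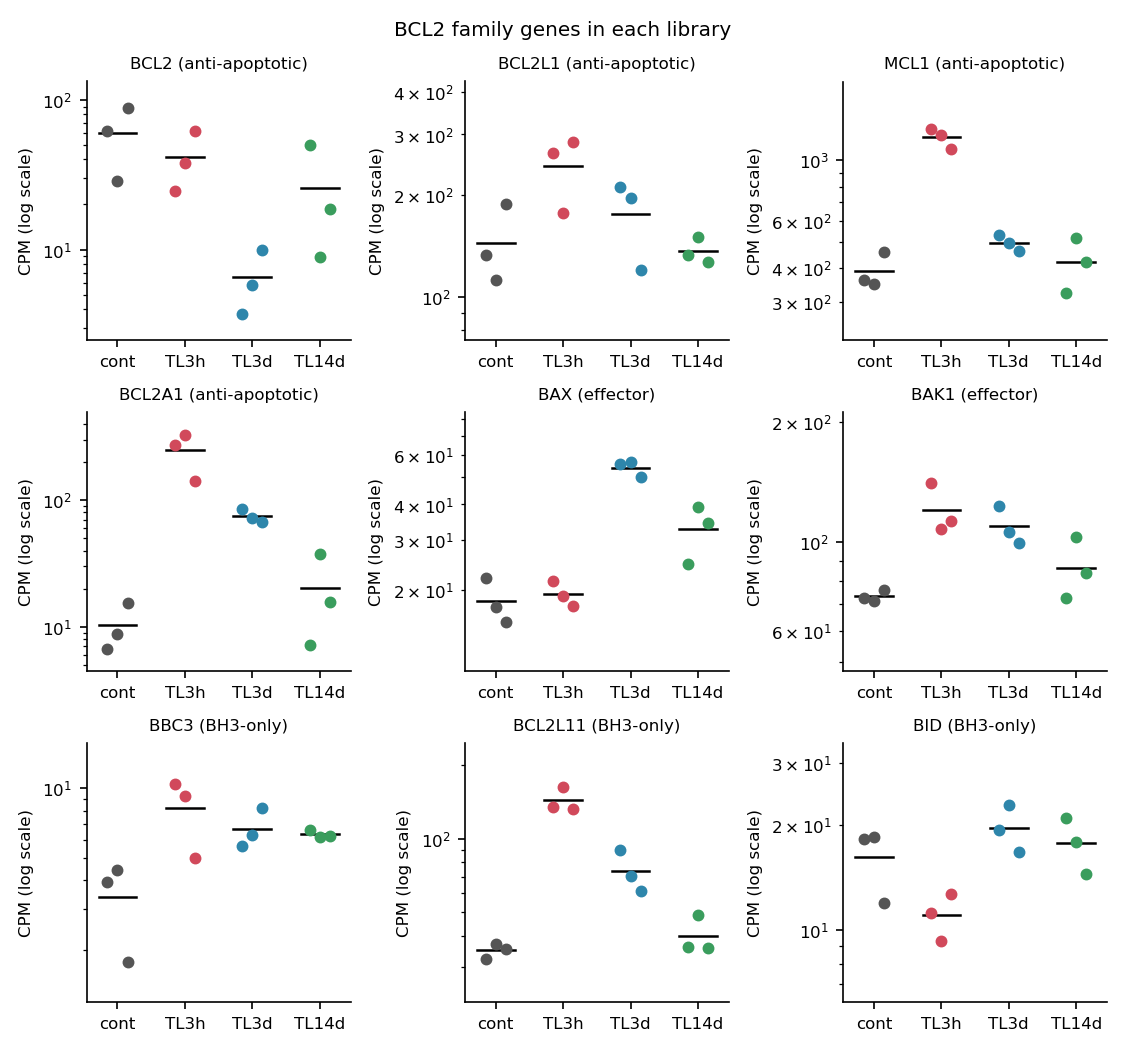
Level of each of the 9 members in every library, in CPM on a log axis, by group (cont, TL3h, TL3d, and TL14d, 3 libraries each); points are libraries and the bar is the group mean. BCL2 was lowest and BAX highest in TL3d, whereas MCL1, BCL2A1, and BCL2L11 were highest in TL3h.

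Among the survival genes, MCL1 encodes a survival protein known for its fast turnover. It was at 363, 351, and 459 CPM in cont and at 1300, 1240, and 1100 CPM in TL3h. In TL3d it was at 532, 497, and 462 CPM, and in TL14d at 326, 516, and 424 CPM. The TL3h libraries stood clear of all 9 others. MCL1 rose 3.10-fold at 3 hours (log2 fold change 1.63 ± 0.19 SE, q = 0.000154). The 3-day libraries lay just above the controls without overlap, with a log2 difference of 0.35 ± 0.19 that did not pass the test (q = 0.204). From 3 hours to 3 days MCL1 fell by 1.29 on the log2 scale (q = 0.000631). At 14 days the difference from cont was 0.11 (q = 0.863).

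BCL2A1 had the largest fold change of the members. It was at 6.65, 8.83, and 15.3 CPM in cont and at 271, 329, and 143 CPM in TL3h. It was at 84.8, 72.6, and 67.7 CPM in TL3d and at 7.16, 37.8, and 15.7 CPM in TL14d. Every TL3h library was above every TL3d library, and every TL3d library above every control, whereas TL14d overlapped with cont. BCL2A1 rose 24.1-fold at 3 hours (log2 fold change 4.59 ± 0.62, q = 0.00031) and 7.32-fold at 3 days (2.87 ± 0.58, q = 0.0155). The 3-day call was lost without cont replicate 1 (q = 0.0594), cont replicate 2 (q = 0.0607), TL3d replicate 1 (q = 0.0512), or TL3d replicate 2 (q = 0.0516), with fold changes of similar size. At 14 days the log2 difference was 0.98 ± 0.54 (q = 0.565). From 3 hours to 3 days BCL2A1 fell by 1.72 on the log2 scale (q = 0.0324). That call was lost with library size alone (q = 0.0833) and without TL3h replicate 1, TL3h replicate 2, or any of the TL3d replicates (q up to 0.105). From 3 hours to 14 days it fell by 3.61 (q = 0.000932).

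The sum of the leukocyte markers had the order of BCL2A1 among the libraries of cont, TL3h, and TL14d, and not in TL3d. It was 212, 1080, and 509 CPM in TL14d replicates 1, 2, and 3. In TL3d it was 1480, 1810, and 1740 CPM, lowest in the replicate with the highest BCL2A1. The sum of the neutrophil markers had the order of BCL2A1 in each of the 4 groups, and was 853, 663, and 159 CPM in TL3d. Single markers did not all have this order. In TL14d the sums of replicates 2 and 3 were close, at 117 and 110 CPM. There S100A8, S100A9, and FPR1 were highest in replicate 2, as was BCL2A1, whereas CSF3R, CXCR1, CXCR2, and S100A12 were highest in replicate 3. CSF3R in TL3h and FPR1 in TL3d also had another order. The part of the leukocyte genes in the change of BCL2A1 was not tested.

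BCL2, the founding member of the family, was the 1 of 9 members that edgeR called lower than cont at 3 days, with all 12 libraries on the TMM scale. It was at 62.2, 28.7, and 88.6 CPM in cont and at 24.6, 38.1, and 61.9 CPM in TL3h. In TL3d it was at 3.70, 5.82, and 10 CPM, and in TL14d at 50.1, 8.88, and 18.7 CPM. The 3-day libraries lay below every control and every 3-hour library, while the 14-day libraries were spread from near the 3-day level up to the control level. BCL2 was 9.20-fold lower at 3 days than in cont (log2 fold change -3.20 ± 0.70, q = 0.0181). At 3 hours the log2 difference was -0.53 ± 0.64 (q = 0.54), and at 14 days -1.21 ± 0.65 (q = 0.559). The call at 3 days was lost without cont replicate 1 (q = 0.0558), TL3d replicate 1 (q = 0.0702), or TL3d replicate 2 (q = 0.0722). Over the 12 fits without a single library, the log2 fold change stayed between -3.65 and -2.83. From 3 hours to 3 days BCL2 fell by 2.67 on the log2 scale (q = 0.0123), a call that none of the 19 alternatives ended. Over the same step the sums of the fibroblast markers did not overlap, at 80800 to 96900 CPM in TL3h and at 1020, 8340, and 45500 CPM in TL3d replicates 1, 2, and 3. COL1A2 and COL3A1 made up most of these sums, and LUM and FAP overlapped between the 2 groups. Of the 7 markers, 2 were called lower over this step and 5 were not called, against 19% of all genes called lower. The order of the sum among libraries was that of BCL2 in TL3d and not in the other 3 groups. The part of these cells in the change of BCL2 was not tested.

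BCL2L1 encodes BCL-XL, a survival protein of many tissues and of platelets. It was at 133, 112, and 187 CPM in cont, 265, 177, and 286 CPM in TL3h, 210, 196, and 120 CPM in TL3d, and 133, 150, and 127 CPM in TL14d. TL3h and cont overlapped, since TL3h replicate 2 was below cont replicate 3. The rise at 3 hours was 1.69-fold (log2 fold change 0.75 ± 0.26, q = 0.0398), and it was the least stable call of the members, kept in 8 of 19 alternatives. It was lost without cont replicate 1 (q = 0.116), cont replicate 2 (q = 0.142), TL3h replicate 1 (q = 0.126), TL3h replicate 3 (q = 0.158), TL3d replicate 2 (q = 0.0543), or TL14d replicate 3 (q = 0.054). It was also lost with library size alone (q = 0.427) and with DESeq2's size factors (q = 0.0538). The log2 differences were 0.28 (q = 0.47) at 3 days and -0.08 (q = 0.938) at 14 days.

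**Figure D2:**
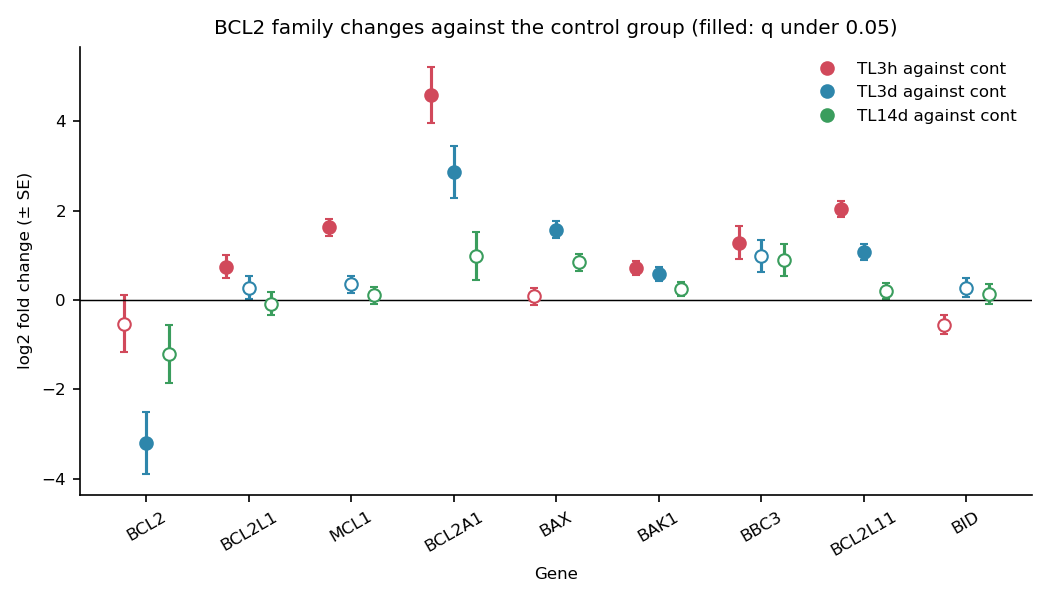
Log2 fold change (± SE) of each of the 9 members against cont at the time points of 3 hours, of 3 days, and of 14 days; filled symbols have q under 0.05 by edgeR's quasi-likelihood test. The BCL2A1 point at 3 hours (4.59) is the highest, the BCL2 point at 3 days (-3.20) is the lowest, and no 14-day symbol is filled.

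Of the pore-forming pair, BAX was called higher than cont at 3 days and BAK1 at both 3 hours and 3 days. BAX was at 21.9, 17.4, and 15.4 CPM in cont and at 21.4, 18.9, and 17.5 CPM in TL3h, which overlapped. It was at 55.5, 56.4, and 50 CPM in TL3d and at 24.6, 39.3, and 34.4 CPM in TL14d. The 3 libraries of TL3d lay close together and above all the others, and those of TL14d lay above all controls. BAX rose 2.97-fold at 3 days (log2 fold change 1.57 ± 0.19, q = 0.00695), a call that was kept in 19 of 19 alternatives. At 3 hours the log2 difference was 0.08 ± 0.19 (q = 0.756), and its sign turned with library size alone (-0.43), without cont replicate 3 (-0.08), and without TL3h replicate 1 (-0.05). From 3 hours to 3 days BAX rose by 1.49 on the log2 scale (q = 0.000332). The 7 of 10 listed markers of monocytes and macrophages with a row were also highest in sum in TL3d, at 1310 to 2110 CPM, against 78.4 to 622 CPM in cont, 652 to 1000 CPM in TL3h, and 100 to 439 CPM in TL14d. Their part in the change of BAX was not tested.

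At 14 days BAX was 0.85 ± 0.19 above cont on the log2 scale, or 1.80-fold. This did not pass the threshold over all genes (q = 0.346, unadjusted p = 0.00119). It passed by the DESeq2 test (q = 0.00906) and in edgeR's fit without TL14d replicate 1 (q = 0.0154), which called 716 genes. The same 14-day libraries of BAX were higher than those of TL3h by 0.77 (q = 0.00868). In TL14d, replicate 1 had the lowest BAX and the highest BCL2, and it also had the lowest sum of leukocyte markers. In cont, by contrast, the library with the highest BAX had the lowest sum of these markers. The part of those cells in the difference was not tested.

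BAK1, the other pore-forming gene, was at 72.5, 71.2, and 75.9 CPM in cont, 141, 108, and 113 CPM in TL3h, 123, 106, and 99.7 CPM in TL3d, and 72.6, 103, and 83.7 CPM in TL14d. The controls were tightly grouped, and all libraries of TL3h and TL3d lay above them. BAK1 rose 1.65-fold at 3 hours (log2 fold change 0.72 ± 0.16, q = 0.004) and 1.49-fold at 3 days (0.58 ± 0.16, q = 0.0329). The 3-hour call was lost with library size alone (0.22, q = 0.276). The 3-day call was lost without cont replicate 1 (q = 0.0984), cont replicate 2 (q = 0.103), cont replicate 3 (q = 0.0592), TL3d replicate 1 (q = 0.115), or TL3d replicate 2 (q = 0.087). At 14 days the log2 difference from cont was 0.24 (q = 0.615).

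Of the BH3-only genes, BCL2L11 encodes BIM, which binds all survival members of the family. It was at 32.2, 37.1, and 35.6 CPM in cont and at 135, 163, and 132 CPM in TL3h. It was at 90.0, 70.1, and 61.1 CPM in TL3d and at 36.3, 48.6, and 35.8 CPM in TL14d. The order ran from TL3h over TL3d down to cont with no overlap, and TL14d overlapped with cont. BCL2L11 rose 4.10-fold at 3 hours (log2 fold change 2.03 ± 0.18, q = 4.26e-05) and 2.11-fold at 3 days (1.08 ± 0.18, q = 0.0102), and both calls were kept in 19 of 19 alternatives. From 3 days to 14 days it fell by 0.87 on the log2 scale (q = 0.0375), the 1 member called over this step by edgeR with all 12 libraries, against 2.24% of all genes called (1.59% lower). DESeq2 called it and also BCL2A1 (q = 0.0109) and BAX (q = 0.0112) lower and BCL2 higher (q = 0.0242), among 1850 genes. The edgeR call of BCL2L11 was kept in 9 of 19 alternatives and was lost in 9 of the 12 fits that left out a library, with q up to 0.131. The exceptions among those 12 were cont replicate 3, TL3h replicate 2, and TL14d replicate 2.

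BBC3 encodes PUMA, a direct target of p53, and had the lowest counts of the 9 members in cont. It was at 3.94, 4.43, and 1.78 CPM in cont, 10.4, 9.25, and 4.98 CPM in TL3h, 5.60, 6.25, and 8.20 CPM in TL3d, and 6.59, 6.14, and 6.22 CPM in TL14d. All 9 operated libraries lay above all controls. The rise at 3 hours was 2.43-fold (log2 fold change 1.28 ± 0.37, q = 0.0166), and it was lost with library size alone (q = 0.119), with only the 2 groups compared in the fit (q = 0.0573), without TL3h replicate 1 (q = 0.0719), and without TL3h replicate 2 (q = 0.0607). The log2 differences were 0.98 ± 0.36 (q = 0.0842) at 3 days, where DESeq2 called it (q = 0.038), and 0.90 ± 0.36 (q = 0.439) at 14 days.

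BID, which caspase-8 cuts to link death receptors to mitochondria, was at 18.2, 18.5, and 11.9 CPM in cont, 11.2, 9.29, and 12.7 CPM in TL3h, 19.3, 22.8, and 16.7 CPM in TL3d, and 20.9, 17.9, and 14.5 CPM in TL14d. Its lowest group was TL3h, which overlapped with cont through cont replicate 3. The log2 difference at 3 hours was -0.55 ± 0.22 (q = 0.0685). It passed the threshold with library size alone (q = 0.00534), by DESeq2 (q = 0.0292), and without cont replicate 3 (q = 0.0146). From 3 hours to 3 days BID rose by 0.82 on the log2 scale (q = 0.0158), a call lost without TL3h replicate 2 or TL3d replicate 2, with q up to 0.0653. The difference from 3 hours to 14 days, 0.68 (q = 0.0302), was lost without TL3h replicate 1, TL3h replicate 2, TL14d replicate 1, or TL14d replicate 2, with q up to 0.0912. Against cont, the differences at 3 days (0.28, q = 0.393) and at 14 days (0.13, q = 0.861) did not pass.

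LOC103349392, the row described as NOXA, was at 0.285, 0.200, and 0.426 CPM in cont, 3.34, 2.20, and 1.28 CPM in TL3h, 2.02, 0.893, and 1.28 CPM in TL3d, and 0.471, 1.52, and 0.586 CPM in TL14d. Its counts were low, at 8 to 17 per control library and 35 to 87 per TL3h library. All 9 operated libraries lay above all controls. It was higher by 2.89 ± 0.60 on the log2 scale at 3 hours (q = 0.00318) and by 2.19 ± 0.58 at 3 days (q = 0.032). The 3-day call was lost without cont replicate 1, cont replicate 2, TL3d replicate 1, or TL3d replicate 2, with q up to 0.109, and with the replicate block (q = 0.0503). At 14 days it was 2.82-fold higher than cont, which did not pass (q = 0.431). NOXA binds MCL1, and the log2 ratio of the counts of LOC103349392 to those of MCL1 was -10.41 ± 0.36 (SD, n = 3) in cont, -9.16 ± 0.58 in TL3h, -8.55 ± 0.55 in TL3d, and -9.12 ± 0.61 in TL14d.

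Between neighbouring groups in the order of their levels, few steps passed edgeR's test with all 12 libraries. For MCL1 and BCL2A1 the order was TL3h, TL3d, TL14d, and cont from high to low, and the step from TL3h to TL3d passed. BCL2L11 had the same order, and its steps from TL3h to TL3d and from TL3d to TL14d passed. BAK1 and BBC3 also had this order, and none of their steps passed. For BAX the order was TL3d, TL14d, TL3h, and cont, and the step from TL14d to TL3h passed. For BCL2 (cont, TL3h, TL14d, and TL3d), BCL2L1 (TL3h, TL3d, cont, and TL14d), and BID (TL3d, TL14d, cont, and TL3h) no step passed. Some of these steps passed in other fits. The step from TL3d to TL14d passed for BCL2A1 and BAX by DESeq2 and in edgeR's fit without TL14d replicate 2 (q = 0.0415 and q = 0.0497), and for BCL2 by DESeq2. The step from cont to TL3h passed for BID in the fits named with its values. A direct comparison of TL3d with TL3h called 2 members higher and 4 lower, against 37.3% of all genes (18.4% higher and 19% lower), and with library size alone 2 higher and 2 lower, among 6311 genes called. TL14d against TL3h gave 2 higher and 5 lower, against 45.3% of all genes (22.9% higher and 22.3% lower), and 2 higher and 3 lower with library size alone, among 7444 genes called. These comparisons share libraries with those against cont.

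Counted by libraries alone, 5 members in TL3h (MCL1, BCL2A1, BAK1, BBC3, and BCL2L11) lay above cont without overlap and 0 below, against 57.3% of all genes that did not overlap (28.9% above and 28.3% below). In TL3d 6 members lay above cont, namely MCL1, BCL2A1, BAX, BAK1, BBC3, and BCL2L11, and BCL2 lay below, against 45.5% of all genes (23.8% above and 21.7% below). In TL14d BAX and BBC3 lay above cont, against 11.1% of all genes (6.03% above). TL3d lay clear of TL3h for 2 members above (BAX and BID) and 4 below (BCL2, MCL1, BCL2A1, and BCL2L11), against 54.7% of all genes (26.2% above and 28.5% below). TL14d lay below TL3d for 3 members (BCL2A1, BAX, and BCL2L11) and above for 0, against 27.4% of all genes (14% below). TL14d lay clear of TL3h for 2 members above (BAX and BID) and 5 below (BCL2L1, MCL1, BCL2A1, BAK1, and BCL2L11), against 52.8% of all genes (25.2% above and 27.6% below).

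At 3 days BAX was higher and BCL2 lower than in cont. Their ratio within a library does not depend on how libraries are scaled. The counts of BAX were 0.351, 0.604, and 0.173 times those of BCL2 in cont, and 0.869, 0.495, and 0.283 times in TL3h. In TL3d they were 15, 9.70, and 4.99 times those of BCL2, and in TL14d 0.490, 4.42, and 1.84 times. All 3 libraries of TL3d thus had more BAX than BCL2 counts, all those of cont and TL3h had fewer, and TL14d was divided. The log2 ratio was -1.59 ± 0.90 (SD, n = 3) in cont, -1.01 ± 0.81 in TL3h, 3.17 ± 0.80 in TL3d, and 0.66 ± 1.60 in TL14d. The difference from cont was 4.76 at 3 days, and 4.29 to 5.19 when single libraries were left out. It was 0.58 (0.11 to 1.01) at 3 hours and 2.25 (1.51 to 3.10) at 14 days, where the groups overlapped. Per transcript length, as FPKM, BAX was at 0.915 to 3.19 times BCL2 in cont and at 26.4 to 79.3 times in TL3d. Over the 12 libraries, which share the group structure, the log2 CPM of BAX and BCL2 had a Pearson r of -0.92. That is a description of these libraries.

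**Figure D3:**
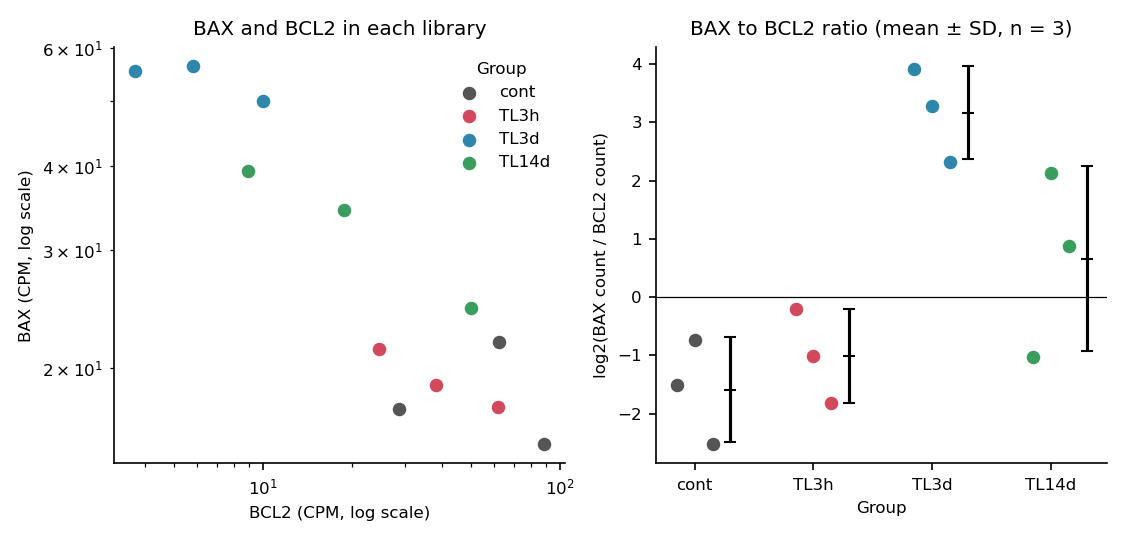
Left, BAX against BCL2 in each of the 12 libraries, in CPM on log axes, coloured by group; right, log2 ratio of BAX to BCL2 counts in each library with the group mean and SD (n = 3). The TL3d libraries lie between 2.32 and 3.91 on the right axis, and those of cont between -2.53 and -0.73.

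FPKM, counts per length and depth as deposited by the authors, allows levels of different genes to be compared. It does not carry the TMM factors, so differences between groups in FPKM are on another scale than those in CPM. From cont to TL3h, for example, mean BAX went from 18.2 to 19.3 CPM, but from 14.0 to 10.7 FPKM. In cont, MCL1 was the most abundant member per length at 93.7 ± 10.5 FPKM (SD, n = 3), followed by BCL2L1 at 39.0 ± 8.88 FPKM and BAK1 at 34.9 ± 0.272 FPKM. BAX was at 14.0 ± 2.91 FPKM, BCL2A1 at 12.8 ± 5.11 FPKM, and BID at 10.7 ± 2.77 FPKM, which overlapped. BCL2 was at 8.61 ± 4.06 FPKM, BCL2L11 at 7.33 ± 0.564 FPKM, and BBC3 at 2.59 ± 1.14 FPKM. In TL3h BCL2A1, at 224 ± 81.9 FPKM, was level with MCL1, at 210 ± 15 FPKM. In TL3d BCL2A1 was at 95.6 ± 12.7 FPKM, near MCL1 at 121 ± 10.9 FPKM, and BCL2 was the least abundant member at 0.948 ± 0.445 FPKM.

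The make-up of the family within a library changed accordingly. BCL2A1 held 3.92 to 7.47% of the summed FPKM of the 9 members in cont, 28.2 to 47.1% in TL3h, 23.3 to 24.9% in TL3d, and 4.28 to 14.9% in TL14d. The 4 survival genes together held 64.9 to 74.9% in cont, 83.2 to 87.1% in TL3h, 66.5 to 68.1% in TL3d, and 62.1 to 66.9% in TL14d. The share of the survival genes was thus higher in every TL3h library than in any other library. Of the 4, only BCL2A1 gained in mean share from cont to TL3h, from 5.64% to 38.4%. MCL1 went from 41.9% to 37.3%, BCL2L1 from 17.3% to 8.71%, and BCL2 from 3.77% to 0.819%. The pore-forming genes BAX and BAK1 held 18.6 to 24.0% in cont and 7.52 to 10.5% in TL3h. Mean BAK1 went from 34.9 to 41.6 FPKM and BAX from 14.0 to 10.7 FPKM, while the family's sum went from 224 to 569 FPKM. The share of the pore-forming genes was back at 23.5 to 24.8% in TL3d and at 24.8 to 26.9% in TL14d. The BH3-only genes held 6.47 to 11.6% in cont, 5.08 to 6.25% in TL3h, 8.35 to 8.76% in TL3d, and 8.33 to 12.5% in TL14d. These are shares of mRNA, and protein was not measured here.

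**Figure D4:**
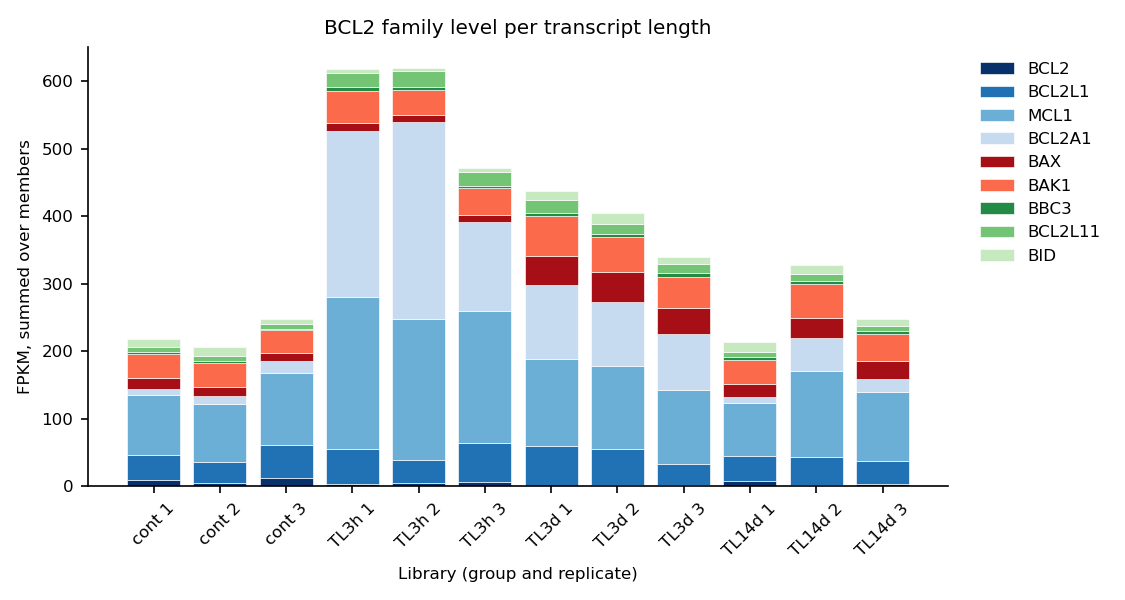
Summed FPKM of the 9 members in each library, with bars divided by member (blue, survival genes; red, pore-forming genes; green, BH3-only genes). The sums were 206 to 247 in cont and 471 to 619 in TL3h, and the BCL2A1 segment is widest in TL3h. FPKM are as deposited, without the TMM factors.

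The authors' transcript table held 20 transcripts of the 9 members among 38710, and all 20 were tested. BCL2, MCL1, BCL2A1, BBC3, and BCL2L11 have 1 transcript each there, so their transcript values repeat those of the gene. At 3 hours 5 member transcripts were higher and 1 was lower, against 28.3% of all transcripts called. For BCL2L1, which has 6 transcripts, XM_008256141.2 passed the test (log2 fold change 1.44 ± 0.33, q = 0.00928). The other 5 did not, among them NM_001082135.1 at 0.97 ± 0.40 (q = 0.0975), and differences between transcripts were not tested. Of the summed FPKM of the 6 transcripts, XM_008256141.2 took 26.4 ± 4.52% in cont and 41.9 ± 1.90% in TL3h. These shares did not overlap between the 2 groups. The transcript of BID that was lower at 3 hours was XM_008250130.2 (log2 fold change -0.91 ± 0.23, q = 0.0154). It was the most abundant of the 5 BID transcripts, at 62.0 ± 5.38% of their summed FPKM in cont. No member transcript was called lower without cont replicate 1, cont replicate 2, or TL3h replicate 2. Neither of the 2 transcripts of BAK1 was called, at q = 0.0846 and q = 0.135.

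At 3 days 4 member transcripts were higher and 1 was lower, against 5.13% of all transcripts. Both transcripts of BAX rose. The shorter one, XM_002723696.3, rose by 1.31 ± 0.21 on the log2 scale (q = 0.024), and XM_008252361.2 rose by 2.42 ± 0.35 (q = 0.0202). Of the summed FPKM of these 2 transcripts, XM_008252361.2 took 6.67 to 8.61% in cont, 12.6 to 20.7% in TL3h, 12.3 to 18.9% in TL3d, and 8.20 to 14.2% in TL14d. Its share was higher in every library of TL3h and TL3d than in cont. The 5 calls at 3 days fell to 0 without cont replicate 1, cont replicate 2, TL3d replicate 1, or TL3d replicate 2. In the same fits the calls over all transcripts fell from 1337 to 0, 0, 4, and 0. How reads were divided between overlapping transcripts is not given in the sources used here, and shares of transcripts that overlap are uncertain. At 14 days 0 member transcripts were called by edgeR, as were 0% of all transcripts, and DESeq2 called 1, among 475 transcripts.

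For each member, the genes most alike in pattern were found by Pearson correlation of log2 CPM over the 12 libraries among 11758 genes. These libraries share the group structure, so many genes correlate. For BCL2A1 they were SMAP2 (r = 0.996) and SLA (0.995), an adaptor of lymphocytes and myeloid cells that went from 2.75 CPM in cont to 76.5 CPM in TL3h. For MCL1 they were EIF4G2 (0.994), a translation factor, and METAP2 (0.994), and for BCL2L11 RAP2B (0.990) and EFHD2 (0.990). For BAK1 they were PRELID1 (0.972), a mitochondrial lipid transfer protein, and IL4R (0.969), the interleukin 4 receptor. For BAX they were ESYT1 (0.983) and MAPK11 (0.981), which went from 1.28 CPM in cont to 6.59 CPM in TL3d. For BCL2 they were RNF2 (0.960), a Polycomb protein, and ZDHHC23 (0.952). BCL2L1 was closest to SNRK (0.946) and PPARD (0.944), and BID to DCK (0.959), a nucleoside kinase, and ZNF710 (0.952).

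Other genes of the apoptosis pathway were counted by lists, to be read against the 45.4% of all genes called at 3 hours (23.2% higher and 22.2% lower) and the 17.6% called at 3 days. Of 11 tested genes of the wider BCL2 family, 1 was higher and 4 were lower at 3 hours, a share near that of all genes, with a median log2 fold change of -0.78 against 0.75 for the members, and none was called at 3 days. The lower ones were BAD (-1.37 ± 0.32, q = 0.00643), a BH3-only gene under growth factor control, the mitophagy receptor BNIP3L (-0.81 ± 0.10, q = 0.000222), BOK (-0.78 ± 0.24, q = 0.0219), a BAX relative, and BCL2L13 (-0.62 ± 0.17, q = 0.0141). The higher one was BCL2L15 (4.83 ± 1.25, q = 0.0102), which had low counts and was named after its values were seen. Of 11 tested genes of the apoptosome and caspases, 1 was higher and 3 were lower at 3 hours, no larger a share than among all genes. APAF1, the scaffold that cytochrome c activates, was lower (-1.10 ± 0.12, q = 0.000116), and DIABLO, the inhibitor of IAP proteins, was higher (0.59 ± 0.14, q = 0.00662). Of 5 IAP proteins, which block caspases, 2 were higher and 2 were lower at 3 hours, and BIRC3 was higher at 3 hours (2.13 ± 0.54, q = 0.00882) and at 3 days (1.72 ± 0.53, q = 0.049). At 3 days 1 of the 5 was also lower, namely XIAP (-0.41 ± 0.11, q = 0.0346).

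Upstream of the members, 6 of 10 tested genes of the death receptor pathway were higher and 1 was lower at 3 hours, and 3 were higher at 3 days, against 45.4% and 17.6% of all genes called. FAS, the receptor of FAS ligand, was at 4.87 ± 0.436 CPM (SD, n = 3) in cont and 76.6 ± 6.07 CPM in TL3h (log2 fold change 3.97 ± 0.62 SE, q = 0.000694). TNFSF10, which encodes TRAIL, was lower at 3 hours (-2.22 ± 0.43, q = 0.00232) and higher at 3 days (1.48 ± 0.42, q = 0.0403). Of 15 genes of the p53 circuit, which holds regulators and targets of p53, 8 were higher and 1 was lower at 3 hours, and 9 were higher and 1 was lower at 3 days. Its median was 0.64 and 1.08, against 0.02 and 0.00 over all genes. CDKN1A, the inhibitor of the cell cycle, was at 97.1 ± 41.6 CPM in cont, 1060 ± 218 CPM in TL3h, and 1120 ± 225 CPM in TL3d. MDM2, the ligase that removes p53, was higher at 3 hours (1.65 ± 0.40, q = 0.00784) and at 3 days (2.20 ± 0.41, q = 0.0135). TP53INP1 was higher at 3 days (2.13 ± 0.41, q = 0.0141) and did not pass at 3 hours (-0.09 ± 0.39, q = 0.871). TP53I3 was lower at 3 hours (-2.36 ± 0.39, q = 0.000965). The members BAX and BBC3 are themselves known targets of p53.

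Of 8 tested regulators of BH3-only genes in stress, 3 were higher at 3 hours, namely TRIB3 (4.03 ± 0.45, q = 0.000124), ATF4 (1.63 ± 0.24, q = 0.000498), and DDIT3 (1.17 ± 0.21, q = 0.00168), which belong to the integrated stress response, against 45.4% of all genes called. FOXO3, a known activator of BCL2L11, was lower at 3 days (-1.07 ± 0.26, q = 0.0244), when TRIB3 was still higher than cont (2.16 ± 0.42, q = 0.0143). Of 7 tested genes from a list on the turnover and control of BCL2 family proteins, 3 were higher and 1 was lower at 3 hours, against the same 45.4%. PIM1, a kinase that phosphorylates BAD, rose most (3.19 ± 0.24, q = 2.89e-05), VDAC2, a mitochondrial channel that binds BAK1, was higher (1.24 ± 0.14, q = 0.000135), and BTRC, a subunit of a ubiquitin ligase, was lower (-2.05 ± 0.18, q = 4.48e-05). The third higher gene was TPT1 (0.51 ± 0.17, q = 0.0302). At 3 days PIM1 was still higher (1.28 ± 0.23, q = 0.0114) and BTRC still lower (-0.91 ± 0.18, q = 0.0144).

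**Figure D5:**
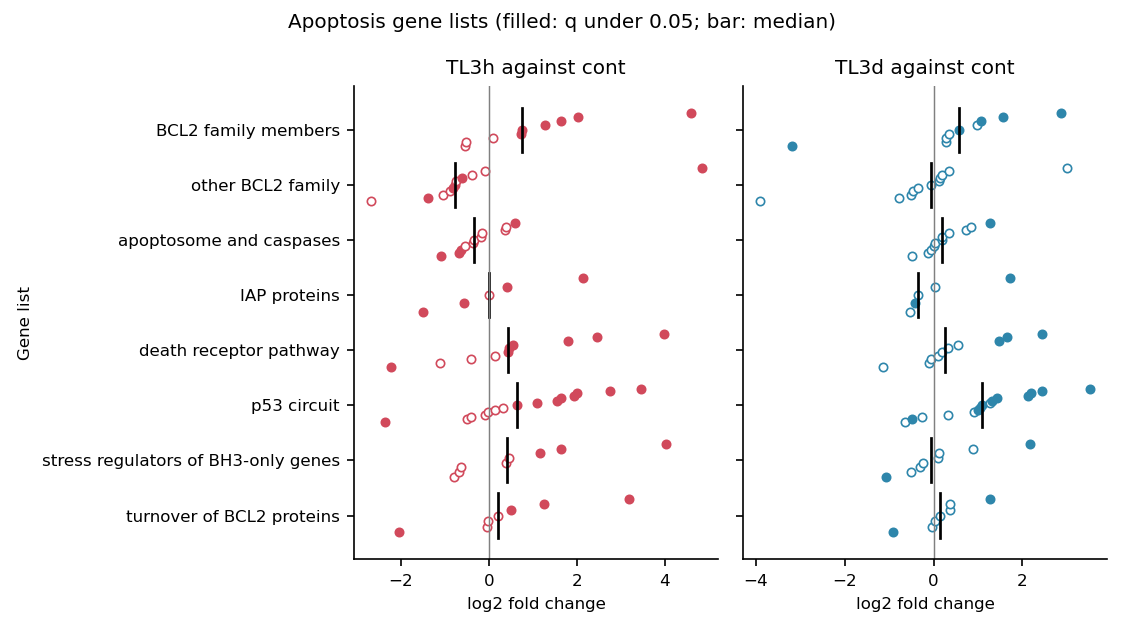
Log2 fold change of each tested gene of the members and of 7 other apoptosis lists, at 3 hours (left) and 3 days (right) against cont; filled symbols have q under 0.05 and the bar is the list's median. The p53 circuit has its median at 0.64 and 1.08, and the wider BCL2 family at -0.78 and -0.06.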

How the data were processed

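RNA of 12 conjunctival libraries (3 per group) was sequenced by the authors, who mapped reads to OryCun2.0 with STAR 2.6.0c and made values per gene and transcript with GeneData Profiler Genome. The authors deposited estimated counts, of which 23.4% were fractions in the gene table, and FPKM values, which are divided by length and depth. Here, estimated counts were rounded to whole numbers, and the test planned for counts was kept. Genes and transcripts with low counts were removed by filterByExpr in edgeR (a minimum count of 10 and a minimum total of 15), which left 14835 genes from 20566 and 26082 transcripts from 38710. Libraries were scaled by TMM, and the 12 libraries entered 1 quasi-likelihood fit without covariates (edgeR 4.0.16, R 4.3.3). Adjustment of p-values (q, threshold 0.05) followed Benjamini and Hochberg over all genes or transcripts tested, and SE was taken from the fold change and the test statistic. The fit was tested on simulated data. Libraries held 27111276 to 38591374 counts, and the upper limit for a gene with no count (3 counts, at 95% confidence) came to 0.0712 to 0.124 CPM. These floors cover counting error only.

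The members and gene lists were chosen with earlier results of these data known, so no p over a list is given. All members are named. From each other list, at most the 4 called genes with the largest fold change and a mean of at least 1 CPM are named. The 2 genes most alike to a member come from genes with at least 1 CPM on average, with a pseudocount of 0.5. Alternatives were DESeq2 size factors, library size alone, the DESeq2 test (1.42.0), limma-trend (3.58.1, prior count 2), no filter, only the 2 groups compared, a replicate block, an absolute log2 fold change of at least 1, and leaving out each of the 12 libraries. Where a call is said to be kept in some of 19 alternatives, the limit on the fold change is left out of them. Exact permutation tests of 3 against 3 cannot go below p = 0.1 and were not used. The MicroShunt libraries were not analysed here, and some results for single genes, the genes most alike to BBC3 among them, are not reported here.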

Additional observations from a re-analysis of the deposited data

Results flagged for a closer look

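The effect of surgery on several members differed between time points, by the test of one time point against another in the same fit (edgeR's quasi-likelihood test, Benjamini-Hochberg over all genes). Each of these differences cancels the control group, which both effects share. BCL2 was lower at 3 days than at 3 hours, with a log2 difference of -2.67 (q = 0.0123), while its own effect at 3 hours did not pass the test. BAX was higher at 3 days than at 3 hours by 1.49 (q = 0.000332) and higher at 14 days than at 3 hours by 0.77 (q = 0.00868). BID was higher at 3 days by 0.82 (q = 0.0158) and at 14 days by 0.68 (q = 0.0302) than at 3 hours. The first was lost without TL3h replicate 2 or TL3d replicate 2 (q up to 0.0653), and the second without TL3h replicate 1 or 2 or TL14d replicate 1 or 2 (q up to 0.0912).

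The other differences were falls after 3 hours. MCL1 had log2 differences from 3 hours of -1.29 at 3 days (q = 0.000631) and -1.52 at 14 days (q = 0.000217). BCL2A1 had -1.72 at 3 days (q = 0.0324) and -3.61 at 14 days (q = 0.000932), beside a fall of the leukocyte marker sum from 1000 to 2110 CPM in TL3h to 212 to 1080 CPM in TL14d whose part was not tested. The 3-day difference was lost in 6 of 19 alternatives, namely library size alone and the fits without TL3h replicate 1 or 2 or any TL3d replicate (q up to 0.105). BCL2L11 had -0.96 at 3 days (q = 0.00207) and -1.83 at 14 days (q = 6.72e-05) from 3 hours, and -0.87 at 14 days from 3 days (q = 0.0375). The first was lost with library size alone (q = 0.057), and the last was kept in 9 of 19 alternatives. BCL2L1 had -0.83 (q = 0.0275) and BAK1 -0.48 (q = 0.0286) at 14 days from 3 hours, and with library size alone neither passed (q = 0.295 and q = 0.991). Both were also lost without TL3h replicate 1 or 3 or TL14d replicate 1 or 3 (q up to 0.144), and BAK1 without cont replicate 3 (q = 0.0509) and with only the 2 groups compared (q = 0.168). Groups of 3 are too small to look for single outlying libraries.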

How the results depend on the processing

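Of the values of single genes under the alternatives, 1095 kept direction and side of the threshold, 77 lost and 14 gained the call, and 14 turned sign. No value that turned had passed the threshold except BAK1 at 14 days against 3 hours. With library size alone, the log2 differences were -0.43 for BAX at 3 hours, 0.0088 for BCL2L1, 0.33 for BAK1, and 0.18 for BBC3 at 3 days against 3 hours, and 0.0027 for BAK1 and 0.11 for BBC3 at 14 days against 3 hours. Without single libraries they ran from -0.083 to 0.23 for BAX at 3 hours, and at 14 days from -0.23 to 0.14 for BCL2L1, -0.055 to 0.26 for BID, and -0.061 to 0.26 for MCL1. They ran from -0.23 to 0.020 for BAK1 at 3 days against 3 hours and from -0.19 to 0.091 for BBC3 at 14 days against 3 days. The cause was not tested.

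Members called at 3 days ranged from 2 to 5 without single libraries (359 to 3778 of all genes), those at 14 days from 0 to 1 (0 to 716), those at 14 days against 3 days from 0 to 3 (0 to 584), and those at 14 days against 3 hours from 4 to 7 (5464 to 6798). Called member transcripts numbered 0 to 5 at 3 days (0 to 2920 of all transcripts), and 0 to 1 at 14 days (0 to 426). The DESeq2 test called 1 member and 1 transcript at 14 days, among 367 genes and 475 transcripts, and 4 members at 14 days against 3 days, among 1850 genes (332 by edgeR). For 14 days against 3 days the count was 0 with only the 2 groups compared, among 15 genes called in all. With a log2 fold change of at least 1 it was also 0, among 264 genes, and 14 days against 3 hours gave 3, among 4211 genes. With the replicate block, members called were 5 at 3 hours, 5 at 3 days, and 0 at 14 days, among 6946, 2719, and 0 genes. BCL2L1 at 3 hours (q = 0.0597) and LOC103349392 at 3 days (q = 0.0503) were lost there. Of 18 pairs of libraries with the same number, 8 had deviations with r over 0.1 (-0.16 to 0.526), and 9 of 12 libraries matched their own number best. No comparison had all 3 pairs over 0.1, so the numbers were not taken as a pairing. The ratio of PMAIP1 to MCL1 was not run, as no row has that name, and LOC103349392 took its place as an alternative chosen after seeing the data. LOC103349392 rests on 8 to 17 counts in each control library.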
